A study of Mus musculus with 8 samples.

Results

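Sphingosine 1-phosphate (S1P) and lysophosphatidate (LPA) are small signalling lipids that act on endothelial cells (ECs) through surface receptors. The 10 genes described here code for their receptors (S1pr1, S1pr3, Lpar4, Lpar6), the kinases that make S1P (Sphk1, Sphk2), the carrier that exports it (Spns2), the lyase that destroys it (Sgpl1) and the phosphatases that strip the phosphate from either lipid (Plpp1, Plpp3). They were picked by gene symbol, and each matched 1 of the 54532 genes in the deposited tables. All 10 passed the filter on low counts, which left 15564 genes to test.

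The libraries came from lung ECs of wild-type C57BL/6J mouse pups at postnatal day 14. From day 0 the pups were kept in room air (normoxia, 21% O2, 4 libraries) or in hyperoxia (80% O2, 4 libraries), a neonatal exposure used in mice to model bronchopulmonary dysplasia. Neither group carried a transgene or received a drug. Pups born on the same day were randomised into litters, and nursing dams were moved between both atmospheres every day. Per the study's methods, cells bound to CD45 beads were discarded and cells bound to CD31 beads were kept, so the isolate was enriched for ECs without being a pure culture. The labels did not say how many pups went into a library, so the spread between libraries may be partly technical, and 5 of 8 libraries held counts of both the X-inactivation transcript Xist and Y-linked genes (more than 100 of each).

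S1P is made inside cells from sphingosine, leaves ECs through Spns2 and circulates bound to carrier proteins. It keeps the vessel wall tight and stabilises new vessels mainly through S1pr1, which couples to Gi proteins, while S1pr3 also couples to Gq and G12/13 and is well known from smooth muscle and pericytes as well as ECs. LPA is made outside cells, largely by the secreted enzyme autotaxin (Enpp2). Lpar4 and Lpar6 are its receptors of the P2Y-like family, and both couple to G12/13 in ECs.

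Total counts lay between 16098086 and 18300730 per library and did not separate the groups (exact permutation test, two-sided, p = 0.457). CPM, the count scaled to the TMM-normalized size of its library, served as the measure of level within a gene. Summed over 10 pan-endothelial markers it was 16278 ± 408 (normoxia) and 16018 ± 368 (hyperoxia, both as mean ± SD of 4 libraries, p = 0.486 by the same exact permutation test), so the labelled cell type was seen in both groups. Of these 10 markers 3 were higher, 3 were lower and 4 did not pass the test. Pecam1 and Cdh5, its most abundant markers, had 2902 and 4121 CPM in normoxia. Markers of the EC subtypes moved: 4 of 4 general capillary markers were lower, 5 of 5 aerocyte capillary markers, 3 of 4 venous markers and 5 of 5 lymphatic markers were higher, and 3 of 6 arterial markers were lower. Markers of other lung cells also moved with the group. All 14 alveolar epithelial markers were higher, and their summed level was 305 to 417 CPM in normoxia and 889 to 2638 CPM in hyperoxia. For mural and smooth muscle cells 6 of 7 tested markers were higher (summed 44.5 to 79.5 against 98.7 to 173 CPM), and for fibroblasts 5 of 7 (summed 120.3 to 235 against 180.2 to 433 CPM). Leukocyte markers (2 higher and 1 lower of 10), platelet and erythroid markers (1 higher and 3 lower of 7) and mesothelial markers (1 higher of 1 tested, summed at under 2 CPM) completed the set. The most abundant markers were Sftpc (106 to 1121 CPM) and Abca3 (110.2 to 145 CPM) for the epithelium, Rgs5 (28.7 to 61.8) and Pdgfrb (9.72 to 19.9) for mural cells and Col3a1 (78.7 to 139.6) and Col1a2 (41.0 to 91.1) for fibroblasts, as group means from normoxia to hyperoxia. No marker was at 0 in all 8 libraries. In bulk RNA, fewer cells of a type and less RNA per cell cannot be told apart.

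Read against this background, 7 of the 10 genes were higher in hyperoxia, 1 was lower and 2 did not pass the test (edgeR quasi-likelihood test, adjusted p under 0.05). Over all 15564 genes tested, the same test called 35.6% in either direction, 18.5% as higher and 17.1% as lower. With a log2 fold change of at least 1 in addition, S1pr3 and Sphk1 were higher and none of the 10 was lower, where 5.62% of all genes were higher and 1.36% were lower. The CPM of both groups did not overlap for 7 of the 10 genes and for 35.4% of all genes. The median log2 fold change of the 10 genes was 0.34 (range -0.38 to 1.52), against -0.004 for all genes. Because the 10 genes were chosen with earlier results of these data known, these comparisons cannot show that the set is unusual.

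**Figure D1:**
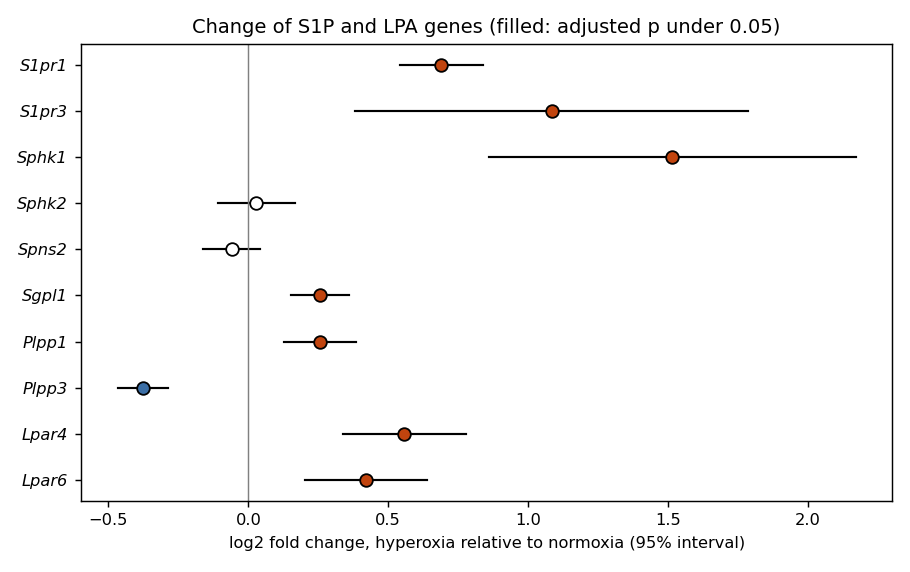
Log2 fold change of each of the 10 genes, hyperoxia relative to normoxia (x axis), with its 95% interval as a bar; filled points passed the test at an adjusted p under 0.05. S1pr3 (1.08) and Sphk1 (1.52) lie farthest right with the widest intervals, Plpp3 (-0.38) is the only filled point left of 0, and the points of Sphk2 (0.028) and Spns2 (-0.060) are open.

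The S1P receptors were both higher in hyperoxia. S1pr1, on chromosome 3 (GRCm38, chr3:115710433-115715072, minus strand), had 508, 579.6, 599 and 635 CPM in the normoxia libraries and 926, 968, 887 and 964 CPM in the hyperoxia libraries. Every hyperoxia library was above every normoxia library, and the difference between groups exceeded the spread within them. S1pr1 rose by 0.69 on the log2 scale (SE 0.0667, edgeR adjusted p = 2.47e-05).

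S1pr3 (chr13:51408639-51422797, plus strand) was a far scarcer transcript, with 46 to 169 counts per library. Its level was 4.84, 2.62, 3.19 and 3.04 CPM in normoxia and 9.65, 9.34, 3.26 and 6.71 CPM in hyperoxia. The groups overlapped, since hyperoxia 3 stood among the normoxia libraries and below normoxia 1. S1pr3 rose by 1.08 on the log2 scale (SE 0.318, edgeR adjusted p = 0.0215).

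The call on S1pr3 was the least firm of the 8. It was lost on leaving out normoxia 2 (edgeR adjusted p = 0.0616), normoxia 4 (0.0586), hyperoxia 1 (0.0569) or hyperoxia 2 (0.0659), and it was stronger without hyperoxia 3 (log2 fold change 1.33, adjusted p = 0.00113). Markers of other cell types moved beside it. The summed mural markers were at 79.5, 53.1, 51.5 and 44.5 CPM in normoxia 1 to 4 and 119, 173, 98.7 and 136 CPM in hyperoxia 1 to 4. Normoxia 1 was the highest and hyperoxia 3 the lowest of its group in S1pr3 and in the summed mural, epithelial and fibroblast markers alike. With the marker score as a covariate the log2 fold change of S1pr3 was -1.52 for the epithelium, -0.43 for mural cells and -0.0593 for fibroblasts (edgeR adjusted p = 0.295, 0.703 and 0.924). The part of each cell type was not tested further.

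The promoter of S1pr3 is shown with those of the LPA receptors and of Plpp3, the only gene of the set that was lower, so that the start regions of genes that moved in opposite directions can be read side by side. Each is the 250 bases before the start site, plus strand, from RefSeq on GRCm38.p6, at chr13:51408368-51408617 for S1pr3, chrX:106920375-106920624 for Lpar4, chr14:73237641-73237890 for Lpar6 and chr4:105157097-105157346 for Plpp3. Capitals mark matches, on either strand, to the letters CACCC (bound by Klf factors), GGGCGG (a GC box), TATAAA and TGANTCA (an AP-1 site).
S1pr3: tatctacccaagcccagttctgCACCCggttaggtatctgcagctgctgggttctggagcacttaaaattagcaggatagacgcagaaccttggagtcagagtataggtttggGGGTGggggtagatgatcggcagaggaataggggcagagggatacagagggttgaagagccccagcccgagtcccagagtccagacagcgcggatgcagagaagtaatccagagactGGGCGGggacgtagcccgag
Lpar4: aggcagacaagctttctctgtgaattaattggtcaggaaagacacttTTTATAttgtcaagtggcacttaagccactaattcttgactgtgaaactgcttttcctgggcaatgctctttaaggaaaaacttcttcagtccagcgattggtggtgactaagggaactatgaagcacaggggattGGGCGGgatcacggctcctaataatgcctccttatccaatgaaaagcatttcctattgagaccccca
Lpar6: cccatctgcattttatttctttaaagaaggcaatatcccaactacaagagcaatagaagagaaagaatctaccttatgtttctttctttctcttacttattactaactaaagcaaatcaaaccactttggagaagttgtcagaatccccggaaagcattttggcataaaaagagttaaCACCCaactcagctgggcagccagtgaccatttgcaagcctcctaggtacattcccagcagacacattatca
Plpp3: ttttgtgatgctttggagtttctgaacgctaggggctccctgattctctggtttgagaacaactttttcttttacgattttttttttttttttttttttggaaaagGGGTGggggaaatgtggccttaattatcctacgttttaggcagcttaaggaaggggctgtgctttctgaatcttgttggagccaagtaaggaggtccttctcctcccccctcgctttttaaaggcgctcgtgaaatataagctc

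S1pr3 held CACCC with its first base 228 and 137 bases before the start and GGGCGG at 20 bases. Lpar6 and Plpp3, which moved in opposite directions, each held CACCC at 72 and 144 bases, respectively, and none of the other motifs. Lpar4 held GGGCGG at 67 and TATAAA at 203 bases and no CACCC. These motifs overlapped nowhere in the printed windows. CACCC stood in 52.0% of all 32817 RefSeq windows of this length, GGGCGG in 32.7%, TATAAA in 12.4% and TGANTCA in 6.75%. Windows were found for 8 of the 10 genes (13 windows), and CACCC matched in 9 of the 13 windows, which belong to 5 genes. Sphk1 alone had 5 of the 13 windows, some of which overlap and share matches. The windows are therefore not independent, and their share cannot be set against that of all windows. A match is a run of letters, and no binding was measured.

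Of the kinases, Sphk1 rose and Sphk2 did not pass the test. Sphk1 (chr11:116530925-116536674, plus strand), the mostly cytosolic kinase that growth factors activate, had 1.10, 0.569, 1.40 and 0.773 CPM in normoxia and 2.40, 3.62, 2.12 and 2.88 CPM in hyperoxia. The groups did not overlap, although the transcript was scarce at 10 to 64 counts per library. Sphk1 was thus higher by 1.52 on the log2 scale (SE 0.296, adjusted p = 0.00248 by edgeR), the largest of the 10. The call was lost with the epithelial, mural or fibroblast marker score as a covariate. The lowest log2 fold change of Sphk1 over all 24 alternatives, 0.39, did not come from a marker score. It came from log2 of FPKM, a level per gene length, plus a pseudocount of 1, and the call held there.

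Sphk2 (chr7:45709467-45718002, minus strand), the kinase found largely in the nucleus and at inner membranes, had 21.1, 20.2, 22.0 and 21.0 CPM in normoxia and 21.8, 22.2, 20.5 and 21.5 CPM in hyperoxia. Both groups covered the same range. Its log2 fold change was 0.028 (95% interval -0.11 to 0.17, edgeR adjusted p = 0.757). Of its exon bases, 12.96% also belonged to Dbp and 8.97% to Rpl18 on the other strand, and since the use of strand in counting was not stated, reads of those bases cannot be assigned with certainty. Rpl18 had a log2 fold change of -0.15 (edgeR adjusted p = 0.0561). Smaller shares of Spns2 (3.21%), Sphk1 (4.02%) and S1pr3 (1.01%) overlapped other genes in this way, and S1pr1, Sgpl1 and Lpar4 had no such overlap.

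Spns2 and Sgpl1 carry S1P out of the cell and break it down. Spns2 (chr11:72451638-72489904, minus strand) had 468, 469, 446 and 469.8 CPM in normoxia and 443, 444, 470.3 and 420.4 CPM in hyperoxia. The normoxia libraries lay within the range of the hyperoxia libraries, of which hyperoxia 3 was the highest of all 8. Spns2 differed by -0.060 on the log2 scale (95% interval -0.16 to 0.042, edgeR adjusted p = 0.341).

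Sgpl1 (chr10:61098642-61147703, minus strand), the enzyme of the irreversible last step of S1P breakdown, had 38.1, 37.9, 37.5 and 37.1 CPM in normoxia and 45.4, 45.5, 42.8 and 46.2 CPM in hyperoxia. The normoxia libraries were tightly grouped, and all hyperoxia libraries were above them. The rise was small, 0.26 on the log2 scale (SE 0.0469, edgeR adjusted p = 0.00168).

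**Figure D2:**
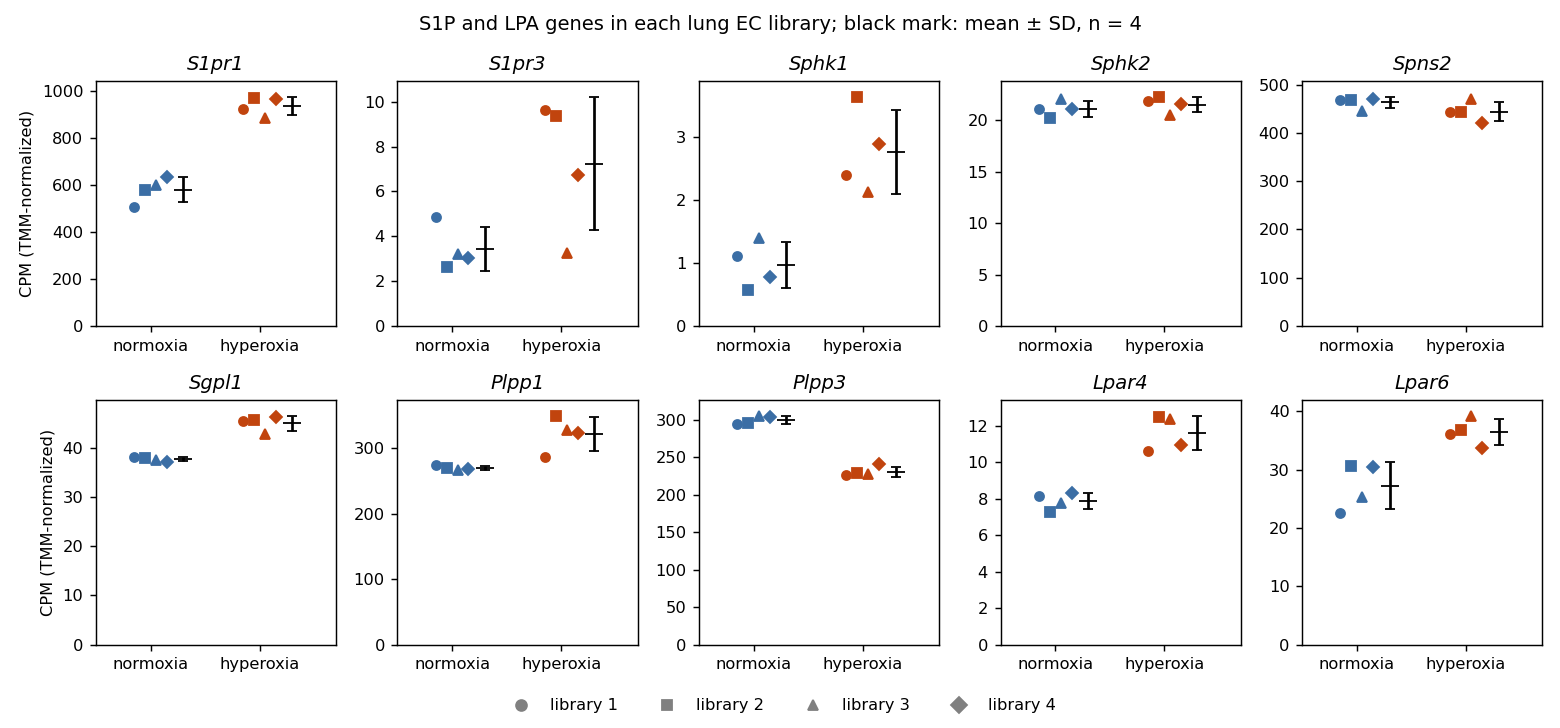
TMM-normalized CPM (y axes, from 0) of the 10 genes in each library, 1 panel a gene, with marker shapes for the 4 libraries of a group and a black mark for mean ± SD. The groups stand apart in 7 panels and overlap for S1pr3, Sphk2 and Spns2; hyperoxia 3 (triangle) sits at 3.26 CPM among the normoxia points of S1pr3.

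The lipid phosphate phosphatases moved in opposite directions. Both are integral membrane enzymes that face the outside of the cell and dephosphorylate LPA and S1P there. Plpp1 (chr13:112800792-112867894, plus strand) had 275, 269, 267 and 269 CPM in normoxia and 288, 350.3, 328 and 324 CPM in hyperoxia. The normoxia libraries were tightly grouped and hyperoxia 1 was only slightly above them, yet the groups did not overlap. Plpp1 rose by 0.26 on the log2 scale (SE 0.0577, edgeR adjusted p = 0.00566).

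Plpp1 shared 25.8% of its exon bases with the gene Skiv2l2 on the other strand, the largest such share in the set. Skiv2l2 had a log2 fold change of -0.081 (edgeR adjusted p = 0.239) at 48.9 CPM in normoxia.

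Plpp3 (chr4:105157347-105232764, plus strand), a gene needed for vascular development in the mouse, had 295, 295, 306 and 303 CPM in normoxia and 226, 229.5, 227 and 240.5 CPM in hyperoxia. Its groups were far apart compared with their spread, with hyperoxia below normoxia throughout. Plpp3 fell by 0.38 on the log2 scale (SE 0.0406, edgeR adjusted p = 5.30e-05), and no exon of another gene overlapped it.

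The LPA receptors were both higher in hyperoxia. Lpar4 (chrX:106920625-106933900, plus strand) had 8.14, 7.28, 7.78 and 8.29 CPM in normoxia and 10.6, 12.5, 12.4 and 10.9 CPM in hyperoxia. All hyperoxia libraries were above all normoxia libraries. Lpar4 rose by 0.56 on the log2 scale (SE 0.0998, edgeR adjusted p = 0.00146).

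Lpar6 (chr14:73237895-73243294, plus strand) had 22.5, 30.7, 25.3 and 30.4 CPM in normoxia and 36.0, 36.9, 39.3 and 33.7 CPM in hyperoxia. Normoxia 1 and 3 were lower than normoxia 2 and 4, and the hyperoxia libraries were above all of them. Lpar6 rose by 0.42 on the log2 scale (SE 0.0986, edgeR adjusted p = 0.00701). Lpar6 lies inside the retinoblastoma gene Rb1, on the opposite strand, and shared 7.56% of its exon bases with it. Rb1 itself was lower in hyperoxia, from 79.5 to 66.5 CPM (log2 fold change -0.26, edgeR adjusted p = 0.00385).

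The summed epithelial and mural markers did not overlap between the groups, and the fibroblast sums overlapped in normoxia 1 and hyperoxia 3. With the epithelial marker score as a covariate, none of the 8 calls passed the edgeR test. In that fit the log2 fold change was 0.64 for S1pr1 (adjusted p = 0.196) and -0.40 for Plpp3 (adjusted p = 0.211), near their values with no score. That of S1pr3 turned from 1.08 to -1.52. In that fit 1.29% of all genes were called. For Sgpl1 the lowest log2 fold change over all 24 alternatives was 0.088. The calls on S1pr3, Sphk1, Sgpl1 and Plpp1 were lost with each of the 3 marker scores. With the mural score the calls on S1pr1 (0.85, adjusted p = 0.00996) and Lpar6 (0.78, adjusted p = 0.0371) held, and with the fibroblast score those on S1pr1, Plpp3, Lpar4 and Lpar6. Of all genes, 4.79% were called with the mural score and 13.7% with the fibroblast score, against 35.6% with no score. The part of other cell types and of the changed EC subtypes in these results was not tested further.

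Comparisons of level between genes were made on FPKM, which divides by gene length. In normoxia S1pr1 was highest at 189 ± 17.3 FPKM, followed by Plpp1 (153 ± 2.07), Spns2 (113 ± 2.63) and Plpp3 (94.2 ± 1.91, SD, n = 4). No neighbours among these 4 overlapped in their libraries. A wide gap followed to Sgpl1 (6.08 ± 0.0731), Sphk2 (5.03 ± 0.195) and Lpar6 (5.0 ± 0.720), of which the last pair overlapped. Lpar4 (1.84 ± 0.111), S1pr3 (0.761 ± 0.219) and Sphk1 (0.200 ± 0.0764) closed the order without overlap between neighbours.

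In hyperoxia the order was almost unchanged, with S1pr1 at 306 ± 12.3, Plpp1 at 183 ± 15.3, Spns2 at 108 ± 5.19 and Plpp3 at 72.7 ± 2.02 FPKM. Lpar6 (6.72 ± 0.437) stood above Sphk2 (5.14 ± 0.172) and overlapped Sgpl1 (7.28 ± 0.235). S1pr3 (1.61 ± 0.659) and Sphk1 (0.574 ± 0.138) overlapped, and Lpar4 lay above them at 2.72 ± 0.233. By mean FPKM, S1pr1 was above 98.9% of tested genes in normoxia and 99.4% in hyperoxia, and Sphk1 above 4.65% and 13.5%.

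**Figure D3:**
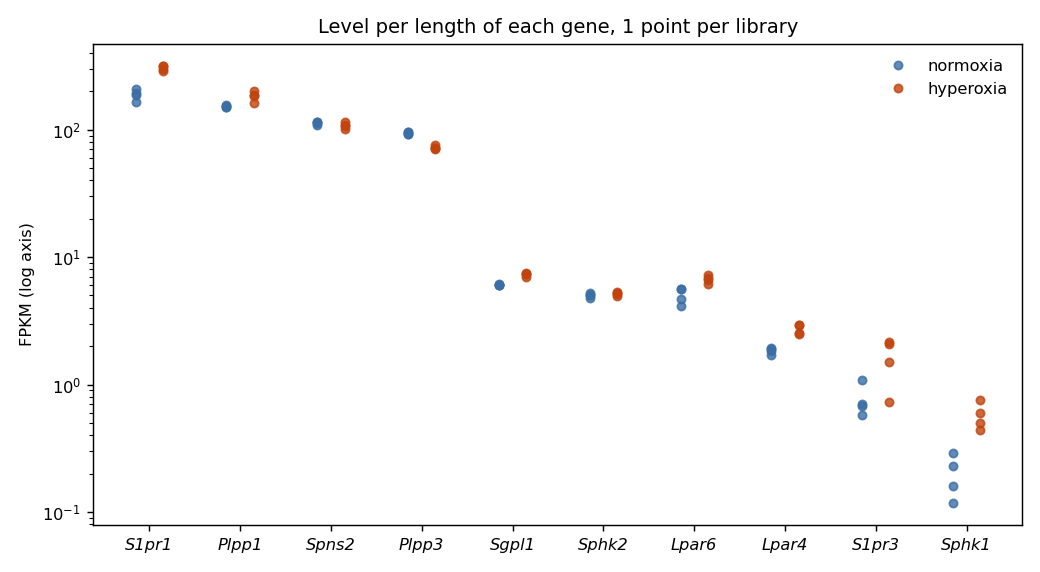
FPKM of the 10 genes on a log axis, 1 point per library, ordered by their mean in normoxia. S1pr1, Plpp1, Spns2 and Plpp3 lie at about 70 FPKM or more, Sgpl1, Sphk2 and Lpar6 near 4 to 8, and Lpar4, S1pr3 and Sphk1 below 3.

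Ratios of FPKM within a library are given as a description. They cover pairs of genes of like function, and Sphk1 to Sgpl1, a kinase that makes S1P to the lyase that destroys it. The last ratio leaves out Sphk2, the more abundant kinase. The ratio of Plpp1 to Plpp3 was 1.68, 1.65, 1.58 and 1.60 in normoxia and 2.30, 2.76, 2.60 and 2.43 in hyperoxia. These average 1.63 ± 0.0458 for normoxia and 2.52 ± 0.200 for hyperoxia (mean ± SD, n = 4) and do not overlap. Sphk1 to Sphk2 was 0.0394 ± 0.0137 in normoxia and 0.111 ± 0.0237 in hyperoxia, and Sphk1 to Sgpl1 was 0.0328 ± 0.0125 and 0.0786 ± 0.0174, again without overlap.

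The receptor ratios overlapped between the groups. S1pr1 to S1pr3 was 154, 324, 275 and 306 in normoxia and 141, 152, 398 and 210.5 in hyperoxia, so hyperoxia 3 was the highest and normoxia 1 close to hyperoxia 2. Lpar4 to Lpar6 was 0.375 ± 0.0674 in normoxia and 0.405 ± 0.0231 in hyperoxia.

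**Figure D4:**
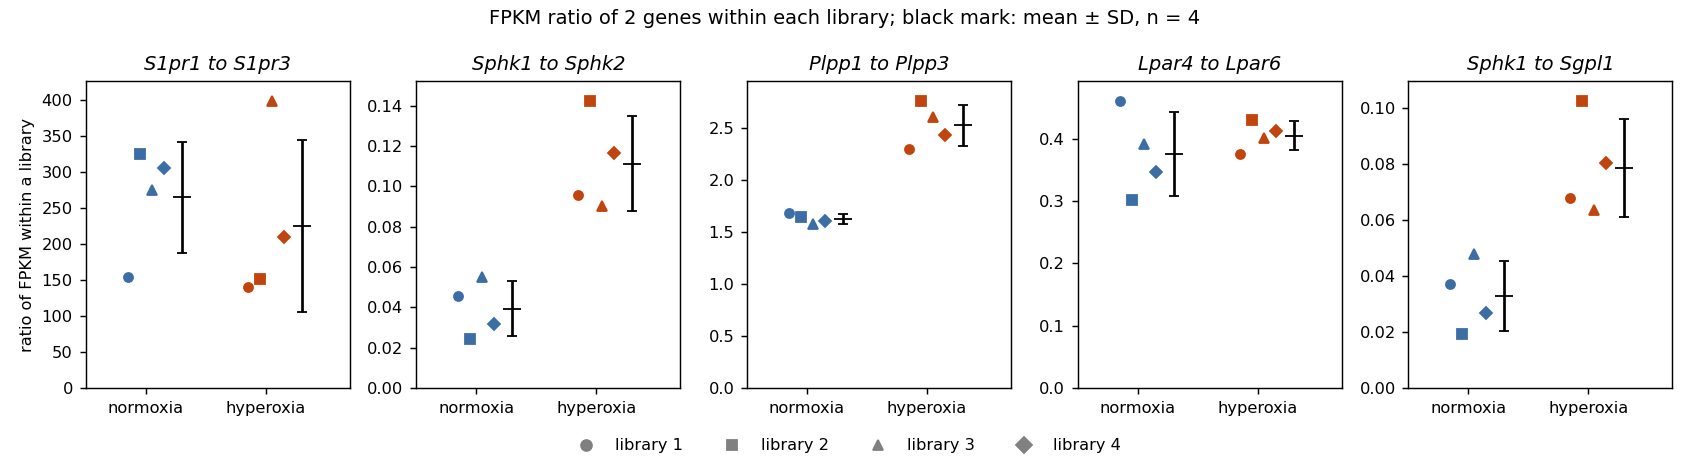
FPKM ratio of 5 gene pairs within each library (y axes, from 0), with mean ± SD as a black mark. Plpp1 to Plpp3, Sphk1 to Sphk2 and Sphk1 to Sgpl1 stand apart between the groups, while S1pr1 to S1pr3 and Lpar4 to Lpar6 overlap.

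The wider pathway was followed through 65 other genes in 9 lists, of which 56 passed the filter. In hyperoxia 11 of the 56 were higher, 10 were lower and 35 did not pass the test, and their median log2 fold change was -0.053. The share called thus lay near that of all genes. Past a log2 fold change of 1, Liph and Plpp2 were higher and Enpp2 was lower, all of them genes of LPA synthesis and breakdown.

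In that list 2 of 7 tested genes were higher and 2 were lower. Enpp2, which codes for autotaxin, had 102, 104, 112 and 95.8 CPM in normoxia and 45.9, 40.7, 42.8 and 43.4 CPM in hyperoxia, with no overlap. The log2 fold change of Enpp2 was -1.26 (SE 0.0597, adjusted p = 2.15e-07 by edgeR), and it passed the test under all 24 alternatives (-1.37 to -1.15), the marker scores included. Liph, a phospholipase that makes LPA from phosphatidate, went from 0.159 ± 0.0734 to 1.58 ± 0.543 CPM (mean ± SD of 4 libraries). On 1 to 38 counts per library its log2 fold change reached 3.27 (SE 0.432, edgeR adjusted p = 2.14e-04), and hyperoxia 3 was the lowest of its group at 0.859 CPM, as it was in the summed epithelial, mural and fibroblast markers. With the epithelial score as a covariate the log2 fold change of Liph was 1.16 (edgeR adjusted p = 0.658), and with the mural score it was 1.61 (adjusted p = 0.269).

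Plpp2, the third member of the phosphatase family, rose from 3.64 ± 0.884 to 8.47 ± 1.16 CPM (log2 fold change 1.22, SE 0.183, edgeR adjusted p = 4.82e-04). The call was lost with the epithelial or mural score as a covariate. At 2.19 FPKM in normoxia Plpp2 stayed far below Plpp1 and Plpp3. Gdpd1, an LPA-forming phospholipase D, had a log2 fold change of 0.028 (edgeR adjusted p = 0.763).

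Of the other S1P receptors, S1pr4, known from leukocytes, was lower (27.6 ± 1.75 to 21.5 ± 0.985 CPM, log2 fold change -0.36, edgeR adjusted p = 0.00213), and the other two did not pass the test. The call on S1pr4 was lost with the epithelial or mural score as a covariate. S1pr2, which couples to G12/13, had 5.23 ± 0.601 and 7.15 ± 1.74 CPM (log2 fold change 0.45, edgeR adjusted p = 0.0696). Only 1 of the 4 other LPA receptors passed the filter: Lpar2, at 2.78 and 3.30 CPM (log2 fold change 0.25, edgeR adjusted p = 0.320). Lpar5 had 0.286 and 0.241 CPM and was not tested. Lpar4 and Lpar6 were therefore the most abundant LPA receptors of these libraries, Lpar6 at 5.0 and Lpar4 at 1.84 FPKM in normoxia against 0.472 FPKM for Lpar2 and 0.187 FPKM for Lpar5.

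Enzymes that feed and drain the sphingosine pool moved in both directions. Ceramidases, which release sphingosine from ceramide, were higher in 2 of 4 tested genes and lower in 1. Acer2, the Golgi ceramidase and by FPKM as abundant as S1pr1 in normoxia (195 ± 7.97 FPKM), had 1416, 1414, 1331 and 1470.3 CPM in normoxia and 766, 730.2, 821 and 721 CPM in hyperoxia. Acer2 thus fell by 0.89 on the log2 scale with no overlap (SE 0.0542, edgeR adjusted p = 1.13e-06). Asah1, the lysosomal ceramidase, was higher (77.3 to 109 CPM, log2 fold change 0.50, edgeR adjusted p = 2.18e-04), and Acer1 had no count in any library. The call on Acer2 was lost with the epithelial score as a covariate, and that on Asah1 with the epithelial or mural score.

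In ceramide synthesis 1 of 12 tested genes was higher (Sptlc1, log2 fold change 0.16, edgeR adjusted p = 0.0402) and none was lower. Its most abundant genes, Cers2 and Degs1, had log2 fold changes of 0.032 and 0.015 (edgeR adjusted p = 0.644 and 0.828), and Sptlc3 had no count in any library. Among sphingomyelin and glucosylceramide enzymes 2 of 7 were higher and 1 was lower. Ugcg, which makes glucosylceramide, fell from 146 to 82.1 CPM (log2 fold change -0.83, edgeR adjusted p = 5.18e-06), and the acid sphingomyelinase Smpd1 rose from 33.1 to 48.3 CPM (log2 fold change 0.55, edgeR adjusted p = 1.57e-05). The calls on Ugcg and Smpd1 were both lost with the epithelial score as a covariate. The list of S1P phosphatases, carriers and other transporters, which also held Aldh3a2, had 4 tested genes. Of these, the S1P phosphatase Sgpp2 was higher (log2 fold change 0.59, edgeR adjusted p = 0.0378), though its groups overlapped, and Aldh3a2 was lower. Aldh3a2, which oxidises the aldehyde that Sgpl1 releases, fell from 78.3 to 61.9 CPM (log2 fold change -0.34, edgeR adjusted p = 1.45e-04). The call on Aldh3a2 was lost with the epithelial or mural score as a covariate. Sgpp1, the other S1P phosphatase, had a log2 fold change of -0.20 (edgeR adjusted p = 0.162).

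**Figure D5:**
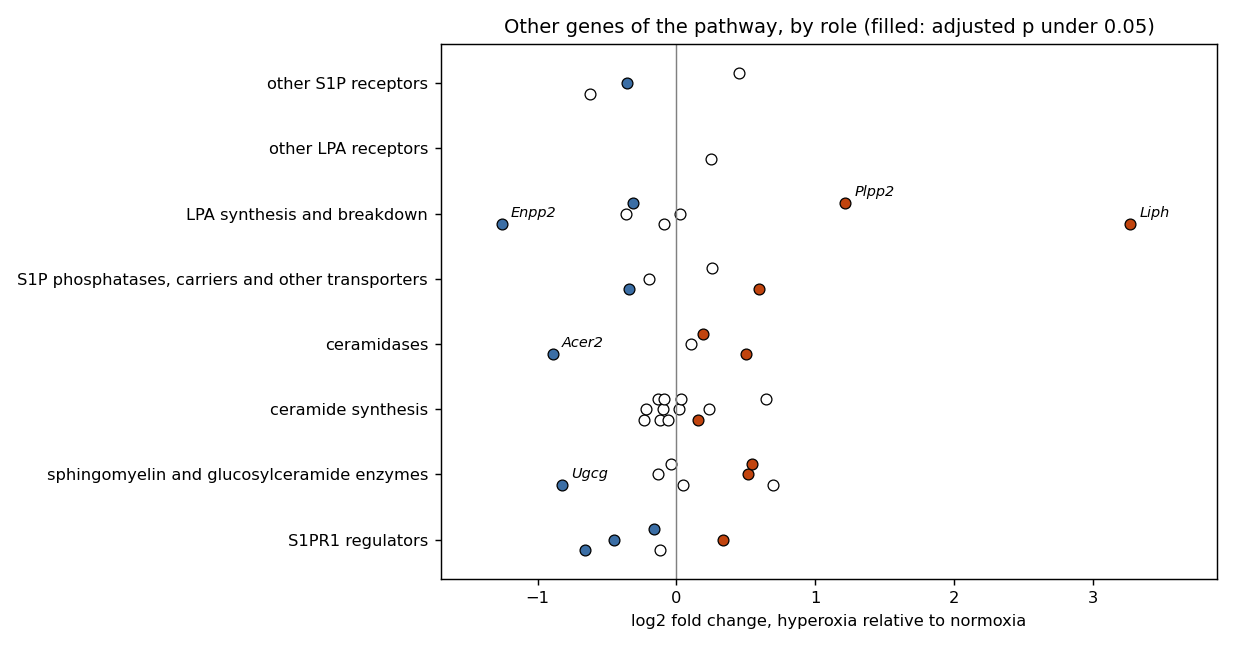
Log2 fold change, hyperoxia relative to normoxia (x axis), of the tested pathway genes outside the 10 in 8 of the 9 lists, 1 row per list, with filled points for an adjusted p under 0.05. Most points lie within 0.5 of 0, with Enpp2 (-1.26), Acer2 (-0.89) and Ugcg (-0.83) to the left and Plpp2 (1.22) and Liph (3.27) to the right.

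Of 5 genes that regulate S1pr1, 1 was higher and 3 were lower. Klf2, a flow-responsive factor known to raise S1pr1 transcription, was higher at 459 ± 38.5 and 580.0 ± 49.3 CPM (log2 fold change 0.34, edgeR adjusted p = 0.00489). Arrb1, an arrestin that takes part in receptor desensitisation, was lower at 546 ± 22.8 and 399 ± 39.2 CPM (log2 fold change -0.45, edgeR adjusted p = 5.09e-04). The call on Klf2 was lost with the epithelial, mural or fibroblast score as a covariate. That on Arrb1 was lost with the epithelial or mural score.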

How the data were processed

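Bulk RNA-seq of mouse lung ECs was analysed, with 4 normoxia and 4 hyperoxia libraries grouped by the sample labels. The authors deposited whole-number gene counts and FPKM values for the same genes and libraries. The submitters' processing notes name HISAT2 2.0.5, featureCounts 1.5.0-p3 and mm10. How reads matching several genes and strand were handled is not given in the sources used here. RNA was extracted with an RNeasy kit per the labels and with TRIzol per the study's methods.

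Counts were tested with the edgeR 4.0.16 quasi-likelihood test in R 4.3.3 (TMM normalization, filterByExpr, group as the only term), with Benjamini-Hochberg adjustment over 15564 genes and an adjusted p threshold of 0.05. The study used DESeq2, run here (1.42.0) as an alternative beside limma 3.58.1. SEs follow from the F statistic. The scripts were tested on simulated data. Total counts were 16098086 to 18300730 per library. Totals and marker sums were compared by a two-sided exact permutation test (smallest p 0.0286). Exon overlaps were taken from GENCODE M21, in which 54495 of 54532 gene identifiers were found. Promoters came from RefSeq, where 8 of 10 genes matched.

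The 10 genes, the pathway and marker lists and the tests were chosen with earlier results of these data known. All 10 genes are named. 1 of the 9 pathway lists enters the counts over all lists but is not reported on its own here. In each other pathway list the 2 genes of highest mean FPKM are named, as are all genes past an absolute log2 fold change of 1 and those at 0 in every library. Of the marker lists the 2 genes of highest mean CPM are given for ECs, epithelium, mural cells and fibroblasts. Sptlc1, named as the only call of its list, and Sgpp2, named as the only higher call of its list, were chosen after their values were seen. Alternatives were other normalizations, filters and tools, log2 FPKM with a pseudocount of 0.1 or 1, a replicate block, marker scores or the Y-linked share as covariates, and leaving out each library.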

Additional observations from a re-analysis of the deposited data

Results flagged for a closer look

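The CPM of Spns2 in normoxia 3 was 446, apart from the other normoxia libraries, which lay between 468 and 469.8. The gap took 0.907 of the range of the group, above Dixon's critical value at 95% for 4 samples. It was the only sample flagged in 68 groups examined, and about 3.4 such flags arise by chance.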

How the results depend on the processing

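With a marker score as covariate the counts of calls fell. With the epithelial score 0 of the 10 genes were higher and 0 lower, and of the pathway genes 1 was higher and 1 lower. With the mural score 2 of the 10 genes were higher and 0 lower, and 2 pathway genes were higher and 3 lower. With the fibroblast score 3 of the 10 genes and 6 pathway genes were higher, and Plpp3 stayed lower. Calls over all genes fell too, from 35.6% with no score to 1.29%, 4.79% and 13.7% with the epithelial, mural and fibroblast scores. These scores differ between the groups themselves, so score and group are hard to separate with 8 libraries, and the cause was not tested. Requiring also a change past 1 on the log2 scale left 2 of the 10 genes higher and 0 lower. The log2 fold change of S1pr3 turned to -1.52 with the epithelial, -0.43 with the mural and -0.0593 with the fibroblast score, and that of Klf2 to -1.33e-04 with the epithelial score. None of these 4 passed the test.

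Under the other 21 alternatives, 203 of 210 tests of the 10 genes stayed on their side of the threshold with the same direction, and the other 7 were S1pr3 with an adjusted p over 0.05. Besides the 4 libraries named in the text, these were limma-voom (adjusted p = 0.0563) and limma on log2 FPKM with a pseudocount of 0.1 (0.0516) or 1 (0.0502). Of 455 tests of 19 pathway genes, 433 stayed, 17 lost and 4 gained the threshold and 1 turned. Liph gave no value under the filter of 1 CPM in 4 libraries.

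Replicate numbers did not pair the libraries: the correlations of same-numbered libraries were 0.119, 0.036, -0.125 and -0.140, and only libraries of number 1 correlated best with their own number. With the replicate block 7 of the 10 genes were higher and 1 was lower, and 8 pathway genes were higher and 8 lower. That fit called 30.8% of all genes. Scarce transcripts set the limit: S1pr3 and Sphk1 rest on 46 to 169 and 10 to 64 counts per library.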
